A study of Mus musculus with 10 samples.

Results

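Many transcripts were lower than in control livers after knockdown of Mboat7 in high-fat diet-fed mice, among them 9 selected as lying outside the Mboat7 locus. The genes described here are Psd2, Chic1, Pde6c, Gpx6, Slc43a1, Serpinb1a, BC089597, Rdh18-ps and Tmem53, which are 9 of the 24411 genes in the deposited count table and 9 of the 12609 that reached 1 CPM (counts scaled to a common library size) in at least 1 library. They were chosen by name for strong or highly uniform falls in the comparison of these same libraries, so their own levels and fold changes are a description and carry no test. The Mboat7 ASO group comprised 5 liver libraries (replicates 6 to 10) from male C57BL/6 mice (strain label C57Bl6/J) that received an antisense oligonucleotide against Mboat7. The Control ASO group comprised 5 libraries (replicates 1 to 5) from mice of the same sex and strain that received a non-targeting oligonucleotide. Both groups were fed the high-fat diet, were 8 weeks old at the start, and were injected with 12.5 mg/kg of oligonucleotide for 20 weeks. The labels call the livers of the Mboat7 ASO group severely fatty and those of the Control ASO group normal. The Mboat7 ASO was one of a pair of independent oligonucleotides, the labels do not say which, and such oligonucleotides also reach adipose tissue and phagocytic cells, so the knockdown need not be confined to hepatocytes.

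Mboat7 encodes an acyltransferase that places arachidonic acid onto lysophosphatidylinositol. The 9 genes have no common pathway. Psd2 is an exchange factor for the small GTPase ARF6 best known from brain, Pde6c is the catalytic subunit of the cone photoreceptor cGMP phosphodiesterase, and Slc43a1 (LAT3) carries branched-chain amino acids and phenylalanine across the plasma membrane without sodium. Gpx6 is a glutathione peroxidase known from olfactory epithelium. Serpinb1a is a cytoplasmic inhibitor of neutrophil serine proteases that hepatocytes also make. Tmem53 is a nuclear envelope protein that restrains BMP-SMAD signalling in mouse osteoblasts, Chic1 is a small cysteine-rich, membrane-associated protein of the X chromosome, and Rdh18-ps is a transcribed pseudogene within the retinol dehydrogenase cluster. BC089597 had no entry under that symbol in the annotation used here and is given by its symbol only.

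Library totals ran between 26232977 and 28791798 counts in Mboat7 ASO livers and between 25153235 and 27912213 counts in Control ASO livers. Mboat7 itself had 60 to 130 counts in Mboat7 ASO livers, against 951 to 1105 counts in Control ASO livers (log2 fold change -3.63 ± 0.17 SE). Of the genes kept, 21.2% were higher and 17.3% lower at an edgeR false discovery rate of 0.05, and the median log2 fold change of all genes was 0.01. The summed level of 14 hepatocyte markers was 96700 to 139000 CPM in Mboat7 ASO livers and 146000 to 163000 CPM in Control ASO livers, so hepatocyte transcripts were abundant in every library, with a lower share in the Mboat7 ASO group. Pan-leukocyte markers (14 genes) summed to 186 to 498 CPM, against 118 to 195 CPM in Control ASO livers, neutrophil markers (13 genes) to 58.4 to 252 CPM, against 28.5 to 139 CPM, and stellate cell markers (12 genes) to 374 to 581 CPM, against 155 to 355 CPM. In RNA from whole tissue, fewer cells of a type and less RNA per cell cannot be told apart, and the part that cell composition plays in the values below was not tested. The labels do not state that each library is a separate animal, so p-values for other genes measure the spread between these samples.

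All 9 genes were lower in Mboat7 ASO livers, beside 17.3% of all genes kept, and in all 9 every Mboat7 ASO library lay below every Control ASO library on the normalized CPM scale, beside 10.7% of all genes kept. On plain library totals, without the normalization factors, 7 of the 9 were separated in this way, beside 3.02% of all genes kept, and Pde6c and Serpinb1a overlapped. Of the 9 genes, 8 were lower by more than 2-fold, beside 0.666% of all genes kept. These counts follow from how the genes were chosen. The genes differed widely in abundance and in the manner of their fall. Psd2 was nearly lost. Rdh18-ps and Tmem53 fell by a modest amount with almost no spread between replicates, and the remaining genes had intermediate folds with broad spread. All 9 log2 fold changes were below -0.44, the median of the hepatocyte markers, which also follows from how the genes were chosen.

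**Figure D1:**
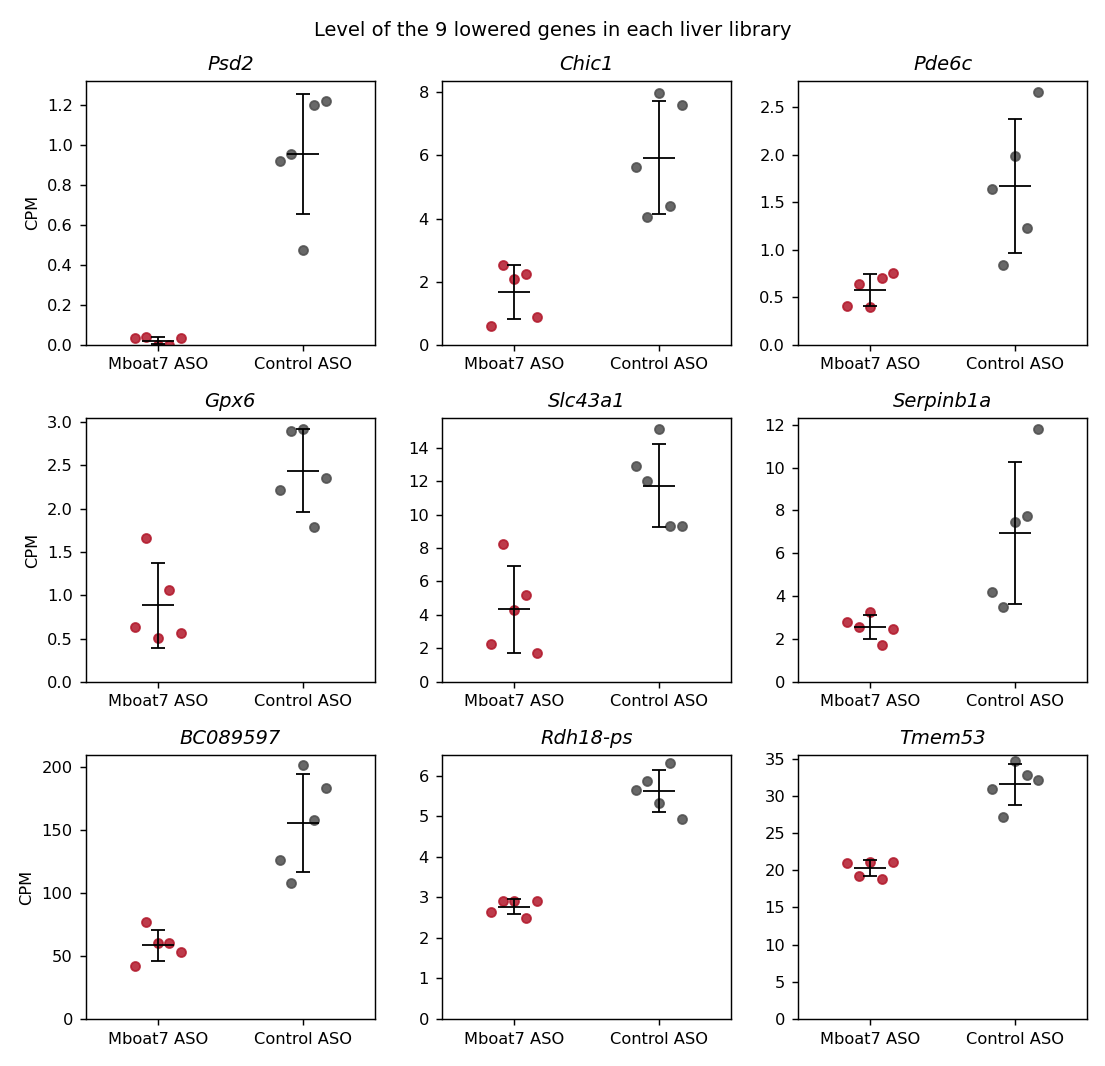
Level in CPM (vertical axis, from 0) of each of the 9 genes in the 5 Mboat7 ASO libraries (left, red) and the 5 Control ASO libraries (right, grey), with the group mean (horizontal mark) and SD (bars). The groups do not overlap in any panel, and the gap is widest for Psd2 (highest Mboat7 ASO library 0.0378 CPM, lowest Control ASO library 0.473 CPM).

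Psd2, the ARF6 exchange factor, was the gene with the lowest log2 fold change of all 2184 genes called lower. Raw counts were 1, 1, 0, 0 and 1 in Mboat7 ASO livers, against 24, 24, 11, 32 and 32 in Control ASO livers. On the CPM scale these are 0 to 0.0378 in Mboat7 ASO livers, against 0.473 to 1.22 in Control ASO livers. A few reads from all 5 Mboat7 ASO libraries together thus stood against a low but regular signal in each control. The pooled 3 counts against 123 counts correspond to a ratio of 46.2 in Control ASO over Mboat7 ASO (exact 95% counting interval 15.4 to 227, which covers counting error only, since PCR copies of a molecule were not told apart). The fitted log2 fold change was -5.24 ± 0.52. In replicates 8 and 9, which had no read, 3 counts would be 0.107 and 0.11 CPM, so a residual level below these values could have given no read. Psd2 passed the filter on low counts only through 2 Control ASO libraries at or above 1 CPM. Keeping a gene in this way favours a lower value in the Mboat7 ASO group. It lies on chromosome 18 (GRCm38, 35964830 to 36014715, plus strand), no gene of the annotation overlaps it, and none of its 4925 distinct 50-base stretches occurs in another annotated transcript.

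The other exchange factors of ARF6 were mostly higher or not called. Of 10 genes kept in a list of ARF6 and its exchange factors, 5 were higher and 1 was lower (beside 21.2% higher and 17.3% lower among all genes, median log2 fold change 0.19). Cyth3 and Cyth4, which activate ARF proteins at the plasma membrane, rose by 1.15 ± 0.17 (edgeR adjusted p = 0.00202) and 2.41 ± 0.47 (edgeR adjusted p = 0.00415) on the log2 scale. The nearest relatives of Psd2 were Psd4, which rose by 0.77 ± 0.20 (edgeR adjusted p = 0.0125), and Psd3, which rose by 0.33 ± 0.06 (edgeR adjusted p = 0.00377). Both calls were lost when the trend with transcript length was removed (Psd3 0.05, adjusted p = 0.583, Psd4 0.50, adjusted p = 0.0698, both by edgeR). Arf6 itself averaged 70.4 ± 5.94 CPM in Mboat7 ASO livers and 68.3 ± 2.26 CPM in Control ASO livers (SD, n = 5 each). Psd had 70 counts in the Mboat7 ASO group and 86 counts in the Control ASO group and stayed below the filter. Among neuronal markers, Snap25 and Nefl had no read in any library. Map2 was the 1 of 3 kept that was called, at 1.32 ± 0.246 CPM in Mboat7 ASO livers and 0.744 ± 0.322 CPM in Control ASO livers (0.82 ± 0.28, edgeR adjusted p = 0.036), and its call was lost with the length trend removed and without any of 7 of the 10 libraries (edgeR adjusted p up to 0.0836). Syt1 carried most of the list, with 13.7 ± 1.51 CPM in Mboat7 ASO livers and 12.7 ± 2.25 CPM in Control ASO livers (SD, n = 5 each), and the summed level of the 12 neuronal markers was 15.0 to 18.2 CPM in Mboat7 ASO livers and 13.2 to 18.5 CPM in Control ASO livers.

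Pde6c, the cone phosphodiesterase subunit, was measured at 0.408, 0.642, 0.394, 0.697 and 0.757 CPM in Mboat7 ASO livers, against 1.64, 0.835, 1.98, 1.23 and 2.66 CPM in Control ASO livers. The lowest control, replicate 2, was only 1.10 times the highest Mboat7 ASO library, replicate 10, while the highest control, replicate 5, stood well apart. On raw counts the nearest pair overlapped, with 23 counts in Mboat7 ASO replicate 10 and 21 counts in Control ASO replicate 2. Its log2 fold change of -1.52 ± 0.33 rested on 83 counts in all Mboat7 ASO libraries and 213 counts in all Control ASO libraries. As with Psd2, the filter was passed only through Control ASO libraries, 4 of which reached 1 CPM. Pde6c lies on chromosome 19 (38132781 to 38183958, plus strand) and shares no 50-base stretch with another transcript.

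Other photoreceptor genes were absent, scarce or not called, apart from Gngt2. The rod subunits Pde6a and Pde6b had no read, Pde6h had 0 counts in Mboat7 ASO livers and 1 count in Control ASO livers, and the cone opsin Opn1mw, the channel Cnga3, Arr3 and Gnb3 had none in any library. Of the 12 cone markers 3 were kept. Gnat2, the cone transducin alpha subunit, had 76 counts in Mboat7 ASO livers and 113 counts in Control ASO livers (log2 fold change -0.74 ± 0.31, edgeR adjusted p = 0.0796). Guca1a, a guanylate cyclase activator, had 196 counts in Mboat7 ASO livers and 146 counts in Control ASO livers (0.25 ± 0.21, edgeR adjusted p = 0.378). The short-wavelength opsin Opn1sw, below the filter, had 17 counts in Mboat7 ASO livers and 27 counts in Control ASO livers. For the broadly expressed Pde6d the log2 fold change was 0.03 ± 0.13 (edgeR adjusted p = 0.871), and Pde6g had a log2 fold change of -0.58 ± 0.26 that missed the threshold (edgeR adjusted p = 0.0926). The one cone marker that rose was Gngt2, a G protein gamma subunit that leukocytes also express (1.95 ± 0.38, edgeR adjusted p = 0.00418). Among other phosphodiesterases more were higher than lower. Of 19 kept, 7 were higher and 2 lower (36.8% and 10.5%, beside 21.2% and 17.3% of all genes), with a median of 0.40. Pde10a rose by 1.49 ± 0.24 (edgeR adjusted p = 0.00245) and the cGMP-specific Pde5a by 1.02 ± 0.24 (edgeR adjusted p = 0.00872). The other cGMP-specific enzyme, Pde9a, fell by 0.93 ± 0.13 (edgeR adjusted p = 0.00175), and Pde4c fell by 0.44 ± 0.10 (edgeR adjusted p = 0.0062). Of 9 genes kept for cGMP synthesis and its effectors, 5 were higher (55.6%) and 0 lower, and the median was 0.78. Both subunits of soluble guanylate cyclase, Gucy1a3 and Gucy1b3, were among them (0.97 ± 0.21 and 0.88 ± 0.20, edgeR adjusted p = 0.00585 and 0.00675). Stellate cell markers were higher in the same livers (8 of 12 kept), and their part in these values was not tested.

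Slc43a1 encodes LAT3. Its level was 2.26, 8.23, 4.27, 5.18 and 1.71 CPM in Mboat7 ASO livers, against 12.9, 12, 15.1, 9.31 and 9.31 CPM in Control ASO livers. Replicate 7 came within 1.13-fold of the lowest controls, whereas replicates 6 and 10 were several-fold below them, and the highest Mboat7 ASO library was 4.81 times the lowest. A log2 fold change of -1.44 ± 0.35 resulted, between -1.81 and -1.24 when any 1 library was left out. The gene lies on chromosome 2 (84838850 to 84863594, plus strand) and its 50-base stretches are unique to it.

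The paralogs of Slc43a1 were higher. Slc43a3, a purine nucleobase transporter that lies 73.0 kb downstream of Slc43a1 on the same chromosome, averaged 24.9 ± 2.01 CPM in Mboat7 ASO livers and 16.1 ± 3.35 CPM in Control ASO livers (SD, n = 5 each). Its log2 fold change was 0.63 ± 0.12 (edgeR adjusted p = 0.004). Slc43a2 (LAT4) rose by 0.64 ± 0.19 (edgeR adjusted p = 0.0214), a call that was lost without replicate 6 of the Mboat7 ASO group or replicate 1 or 3 of the controls (edgeR adjusted p = 0.0504, 0.0504 and 0.0541). The list of SLC43 and system L transporters also held amino acid transporters of other systems. In this list 5 of 12 genes kept were higher and 1 was lower (41.7% and 8.33%, beside 21.2% and 17.3% of all genes), and the median was 0.40. The amino acid transporters Slc38a1 (1.33 ± 0.27, edgeR adjusted p = 0.00491), Slc7a8 (1.07 ± 0.31, edgeR adjusted p = 0.0197) and Slc7a7 (1.01 ± 0.24, edgeR adjusted p = 0.00836) made up the remainder of the higher genes. Genes that break down the branched-chain amino acids carried by LAT3 were lower or not called. Of 19 kept, 0 were higher and 8 were lower (42.1%, beside 17.3% of all genes), with a median of -0.13. Bcat2, which removes the amino group of branched-chain amino acids, fell by 0.75 ± 0.09 (edgeR adjusted p = 0.00121). Hibadh of the valine pathway fell by 0.51 ± 0.08 (edgeR adjusted p = 0.0024), Ivd of the leucine pathway by 0.46 ± 0.11 (edgeR adjusted p = 0.00703), and Bckdha, a subunit of the branched-chain ketoacid dehydrogenase, by 0.32 ± 0.06 (edgeR adjusted p = 0.00314). The count of lower genes was 5 to 8 when any 1 library was left out and fell to 4 with no normalization factor.

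Gpx6 had 0.628, 1.66, 0.502, 1.06 and 0.559 CPM in Mboat7 ASO livers, against 2.22, 2.90, 2.92, 1.79 and 2.36 CPM in Control ASO livers. Replicate 7 was again the Mboat7 ASO library nearest to the controls, the lowest of which, replicate 4, was 1.08 times higher. Its log2 fold change of -1.47 ± 0.32 rested on 124 counts in the Mboat7 ASO group and 309 counts in the Control ASO group. Gpx6 lies on chromosome 13 (21312125 to 21319624, plus strand) and no stretch of it is shared. The other glutathione peroxidases showed no common direction, with 1 of 5 kept higher and 1 lower (20.0% each). The secreted Gpx3 rose by 0.69 ± 0.20 (edgeR adjusted p = 0.0185). Gpx1, the main cytosolic enzyme, fell by 0.24 ± 0.07 (edgeR adjusted p = 0.0227), but its log2 fold change was 0.00 after removal of the length trend, and its call was lost without Control ASO replicate 1, 3 or 5 (adjusted p = 0.0502, 0.051 and 0.0513 by edgeR). Gpx4, Gpx7 and Gpx8 had log2 fold changes of 0.15 ± 0.15, 0.40 ± 0.29 and 0.72 ± 0.32, none of which passed (edgeR adjusted p = 0.437, 0.294 and 0.0903). Gpx2 had 12 counts in the Mboat7 ASO group and 6 counts in the Control ASO group, and Gpx5 had 1 count in the Mboat7 ASO group and none in the Control ASO group. Of 12 genes kept for glutathione supply and recycling, 0 were higher and 5 lower (41.7%, beside 17.3% of all genes), 2 to 6 when any 1 library was left out. Of these, Chac2, which cleaves glutathione, fell by 0.50 ± 0.09 (edgeR adjusted p = 0.00317), and the mitochondrial thioredoxin reductase Txnrd2 fell by 0.29 ± 0.05 (edgeR adjusted p = 0.0031).

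Serpinb1a had 2.79, 2.57, 3.26, 1.73 and 2.47 CPM in Mboat7 ASO livers, against 4.17, 3.50, 7.48, 7.74 and 11.8 CPM in Control ASO livers. The Mboat7 ASO libraries lay close together and the spread was in the controls, whose lowest, replicate 2, was 1.07 times the highest Mboat7 ASO library. On raw counts this pair overlapped, with 91 counts in Mboat7 ASO replicate 8 and 88 counts in Control ASO replicate 2. Serpinb1a thus had a log2 fold change of -1.43 ± 0.31, between -1.60 and -1.16 when any 1 library was left out. Serpinb1a lies on chromosome 13 (32842092 to 32851185, minus strand), and 2.81% of its 50-base stretches occur in other transcripts, mainly its paralogs Serpinb1b and Serpinb1c.

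The other clade B serpins, the intracellular protease inhibitors, were mostly higher. Of 4 kept, 3 were higher (beside 21.2% of all genes) and 0 lower, and the median was 0.72. Serpinb6b (1.11 ± 0.27, edgeR adjusted p = 0.0102) and Serpinb9, a granzyme B inhibitor (0.52 ± 0.14, edgeR adjusted p = 0.0146), lie 114 kb and 152 kb upstream of Serpinb1a in the same gene cluster. Serpinb6a was also higher (0.92 ± 0.17, edgeR adjusted p = 0.00352). Serpinb1b and Serpinb1c, below the filter, had 14 and 19 counts over the Mboat7 ASO libraries and 2 and 2 counts over the Control ASO libraries. Elane, the neutrophil elastase that SERPINB1 inhibits in man, rose by 1.94 ± 0.60 (edgeR adjusted p = 0.0253). That call was lost without replicate 6 or 7 of the Mboat7 ASO group or replicate 1, 3 or 5 of the controls (edgeR adjusted p up to 0.0644). Leukocyte and neutrophil markers rose in the same livers (14 of 14 and 11 of 12 kept), and their part in the values of these serpins was not tested.

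BC089597 was the most abundant of the genes. It was measured at 41.7, 76.5, 60.0, 59.9 and 52.9 CPM in Mboat7 ASO livers, against 126, 108, 201, 158 and 183 CPM in Control ASO livers, with at least 1327 counts in every library. Replicate 7 was the highest Mboat7 ASO library and Control ASO replicate 2 the lowest control, 1.41 times higher. The log2 fold change was -1.41 ± 0.19.

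Rdh18-ps was measured at 2.64, 2.91, 2.9, 2.5 and 2.9 CPM in Mboat7 ASO livers, against 5.66, 5.88, 5.33, 6.32 and 4.94 CPM in Control ASO livers. Within each group the libraries were nearly level (coefficient of variation 6.89% in Mboat7 ASO livers and 9.33% in Control ASO livers), and the lowest control was 1.70 times the highest Mboat7 ASO library. The log2 fold change was -1.02 ± 0.11, and it was -0.86 with no normalization factor and -0.76 with the length trend removed. The value is uncertain as a measure of the pseudogene itself. It lies on chromosome 10 (127824284 to 127843938, plus strand), 381 of its 953 exonic bases overlap exons of Rdh16 on the same strand, and 63.48% of its 50-base stretches occur in other transcripts, mostly Rdh16, Rdh7 and Rdh1.

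The related dehydrogenases did not fall to the same degree, but Rdh18-ps, unlike them, was chosen for its fall. Rdh16 had 148 ± 18.4 CPM in Mboat7 ASO livers and 133 ± 17.7 CPM in Control ASO livers (SD, n = 5 each), a log2 fold change of 0.16 ± 0.11 that did not pass (edgeR adjusted p = 0.264). Rdh7, which like Rdh16 oxidises retinol and hydroxysteroids, had 951 ± 53.6 CPM in Mboat7 ASO livers and 1240 ± 83.2 CPM in Control ASO livers, and fell by 0.38 ± 0.07 (edgeR adjusted p = 0.00298). Rdh5, which acts on cis-retinols and does not lie within 200 kb of Rdh18-ps, fell by 0.61 ± 0.09 (edgeR adjusted p = 0.00184). Rdh9, Sdr9c7 and Hsd17b6 had log2 fold changes of -0.06 ± 0.18, -0.20 ± 0.20 and -0.62 ± 0.26 and did not pass (edgeR adjusted p = 0.815, 0.471 and 0.0792). In the wider list of retinoid metabolism, 10 of 25 genes kept were lower (40.0%, beside 17.3% of all genes) and 2 were higher, with a median of -0.06. The lower genes included Dhrs3, which reduces retinal to retinol (fell by 0.60 ± 0.07, edgeR adjusted p = 0.00134). They also included the plasma carriers Ttr (0.52 ± 0.08 lower, edgeR adjusted p = 0.00205) and Rbp4 (0.52 ± 0.11 lower, edgeR adjusted p = 0.00457) and the carotenoid-cleaving Bco2 (0.46 ± 0.09 lower, edgeR adjusted p = 0.0047). With no normalization factor 5 were lower and the median was 0.10. Ttr is also one of the hepatocyte markers, 9 of 14 of which were lower.

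Tmem53 had the smallest fold change and the smallest spread. It was measured at 21, 19.3, 21.1, 18.9 and 21.1 CPM in Mboat7 ASO livers, against 30.9, 27.2, 34.7, 32.8 and 32.2 CPM in Control ASO livers. The coefficient of variation was 5.42% in Mboat7 ASO livers and 8.88% in Control ASO livers, so that groups 1.55-fold apart were separated by 1.29-fold between their nearest libraries. The log2 fold change was -0.64 ± 0.07, ranking 250th among 2184 lower genes by fold, and it was -0.47 with no normalization factor and -0.43 with the length trend removed. Tmem53 lies on chromosome 4 (117251951 to 117268582, plus strand). Armh1, a gene that is not in the count table, overlaps 175 of its exonic bases on the opposite strand, and reads of the pair cannot be told apart there because the sources used here do not say which strand column was counted. Of 24 genes kept for BMP-SMAD signalling, 2 were higher and 2 lower (8.33% each, beside 21.2% and 17.3% of all genes), and the median was -0.00. The lower genes were Hamp2, a hepcidin gene (fell by 1.87 ± 0.53, edgeR adjusted p = 0.0174), and Hfe2, the hemojuvelin coreceptor (fell by 0.35 ± 0.09, edgeR adjusted p = 0.014). The call of Hfe2 was lost with no normalization factor and with the length trend removed. The higher genes were the receptor Bmpr2 (0.25 ± 0.05, edgeR adjusted p = 0.00529), which turned to -0.06 with the length trend removed, and Bmp2 (0.46 ± 0.16, edgeR adjusted p = 0.039). The call of Bmp2 was lost without replicate 6, 7 or 9 of the Mboat7 ASO group or replicate 1, 3 or 5 of the controls (edgeR adjusted p up to 0.0898).

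Chic1 was measured at 0.597, 2.53, 2.08, 2.24 and 0.889 CPM in Mboat7 ASO livers, against 5.62, 4.05, 7.99, 4.41 and 7.60 CPM in Control ASO livers. Replicates 6 and 10 were well below the other Mboat7 ASO libraries, and the lowest control was 1.60 times the highest of them. The log2 fold change was -1.84 ± 0.37, between -2.04 and -1.63 when any 1 library was left out. The gene lies on the X chromosome (103356476 to 103396092, plus strand) close to the X inactivation centre, and 0.68% of its 50-base stretches occur in antisense orientation in other transcripts. Its only paralog, Chic2, averaged 8.82 ± 1.08 CPM in Mboat7 ASO livers and 10.5 ± 0.737 CPM in Control ASO livers (SD, n = 5 each), a log2 fold change of -0.25 ± 0.10 that did not pass (edgeR adjusted p = 0.0566). Chic2 was called lower with TMM or RLE normalization, by DESeq2, without replicate 7 of the Mboat7 ASO group and with the length trend removed, where its log2 fold change was -0.51 (edgeR adjusted p = 0.00977).

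**Figure D2:**
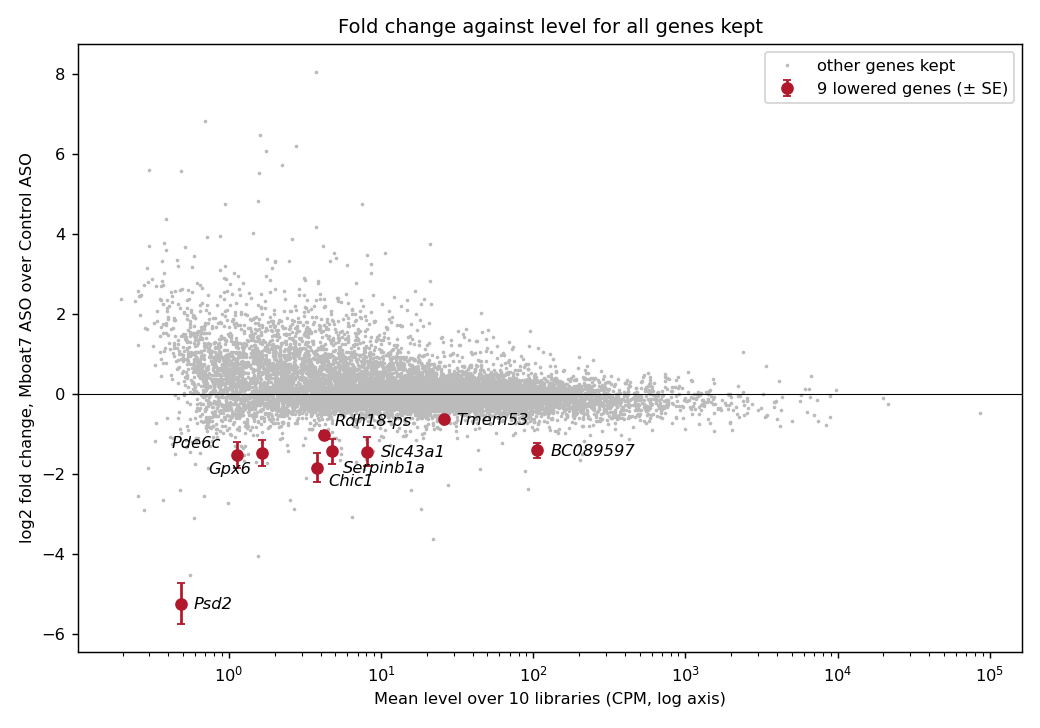
Log2 fold change of Mboat7 ASO over Control ASO (vertical axis) against the mean level over all 10 libraries in CPM (horizontal, log axis) for the genes kept (grey) and the 9 genes (red, with SE). Psd2 has the lowest fold change of all genes kept (-5.24), BC089597 stands out at a mean of 107 CPM, and Tmem53 (-0.64) lies near the lower edge of the cloud at its level.

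Levels can be compared between the 8 annotated genes per kilobase of their longest transcript. In Mboat7 ASO livers the mean level per kilobase was 15.6 CPM for Tmem53, 2.90 for Rdh18-ps, 1.34 for Serpinb1a, 1.10 for Slc43a1, 0.659 for Gpx6, 0.226 for Chic1, 0.200 for Pde6c and 0.00443 for Psd2. In Control ASO livers it was 24.3 CPM for Tmem53, 5.90 for Rdh18-ps, 3.61 for Serpinb1a, 2.98 for Slc43a1, 1.82 for Gpx6, 0.805 for Chic1, 0.577 for Pde6c and 0.207 for Psd2. The order was thus the same in both groups. Among all genes called lower, the genes ranked just below and just above the members by fold change were at nearly the same value. Adgrf1 (-1.84 ± 0.53) and Dio3os (-1.74 ± 0.44) flanked Chic1, Pnpla3 (-1.43 ± 0.37) stood between Serpinb1a and BC089597, Sult1e1 (-1.03 ± 0.35) and Sult1a1 (-1.02 ± 0.12) flanked Rdh18-ps, and Hsd17b2 (-0.64 ± 0.10) and Lhpp (-0.63 ± 0.10) flanked Tmem53. The gene next to Psd2 was Cyp2c69 (-4.53 ± 1.16). Close values at adjacent ranks follow from sorting many genes, so they do not tell whether the ranking has a break. The gap between Psd2 and Cyp2c69 is smaller than the SE of Cyp2c69.

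Apart from the requirement to lie outside the Mboat7 locus, the genomic surroundings were not used to choose the genes. Their neighbours were tested gene by gene and not as a group. Within 200 kb of the 8 annotated genes, 49 other genes were kept, of which 13 (26.5%) were lower and 6 (12.2%) higher, beside 17.3% and 21.2% of all genes, with a median log2 fold change of -0.07. Neighbouring genes are not independent of each other. Within 50 kb, 6 of 11 were lower and 0 were higher, and the median was -0.23. The genes closest to a member were Rdh16, which overlaps Rdh18-ps, and Rnf220, 2.88 kb from Tmem53 (-0.19 ± 0.07, edgeR adjusted p = 0.0613), and neither was called. The nearest of those called were Fra10ac1 (fell by 0.34 ± 0.08, edgeR adjusted p = 0.00866) and Rbp4 (fell by 0.52 ± 0.11, edgeR adjusted p = 0.00457), which lie 4.52 kb downstream and 7.5 kb upstream of Pde6c. Timm10, a mitochondrial protein chaperone 8.64 kb upstream of Slc43a1, fell by 0.43 ± 0.07 (edgeR adjusted p = 0.00224), but by 0.11 with the length trend removed (edgeR adjusted p = 0.17). Wrnip1, 19.5 kb downstream of Serpinb1a, fell by 0.36 ± 0.06 (edgeR adjusted p = 0.00327). In each case the neighbour fell far less than the gene itself, which, unlike the neighbour, was chosen for its fall.

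Farther out both directions occurred. Cxxc5 and Ube2d2a, 103 kb and 155 kb upstream of Psd2, fell by 0.43 ± 0.06 and 0.31 ± 0.09 (edgeR adjusted p = 0.00201 and 0.0154). Serping1, the C1 inhibitor, and Clp1, an RNA kinase, upstream of Slc43a1, fell by 0.29 ± 0.08 and 0.27 ± 0.07 (edgeR adjusted p = 0.0154 and 0.0159), and Naca downstream of Rdh18-ps fell by 0.36 ± 0.08 (edgeR adjusted p = 0.00539). Higher were Myof upstream of Pde6c (1.13 ± 0.27, edgeR adjusted p = 0.00825) and the endothelial receptor Gpr182 upstream of Rdh18-ps (0.78 ± 0.17, edgeR adjusted p = 0.00641). The noncoding RNAs Jpx and Ftx, which lie 97.5 kb and 165 kb from Chic1 in the X inactivation centre, both had log2 fold changes of -0.02 ± 0.15 (edgeR adjusted p = 0.931 and 0.93). Of the 19 neighbours called, 15 kept their call when any 1 library was left out, but only 9 kept it under every alternative. Calls were lost with no normalization factor for Fra10ac1 (edgeR adjusted p = 0.0677), Serping1 (0.145), Clp1 (0.246), Ube2d2a (0.153) and Naca (0.0501). With the length trend removed they were lost for Fra10ac1 (edgeR adjusted p = 0.056), Serping1 (0.158) and Clp1 (0.0533), beside Timm10. The 4 that lost it when a library was left out were Zscan12 near Gpx6 (-0.23 ± 0.08, edgeR adjusted p = 0.0428, lost without any of 9 of the 10 libraries, up to 0.0935) and 3 genes upstream of Tmem53. Those 3 were Plk3 (-0.42 ± 0.14, edgeR adjusted p = 0.0415, lost without any of 7, up to 0.0851), Btbd19 (-0.54 ± 0.20, edgeR adjusted p = 0.0487, lost without any of 8, up to 0.122) and the mitotic kinesin Kif2c (1.26 ± 0.38, edgeR adjusted p = 0.0228, lost without any of 4, up to 0.0579).

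**Figure D3:**
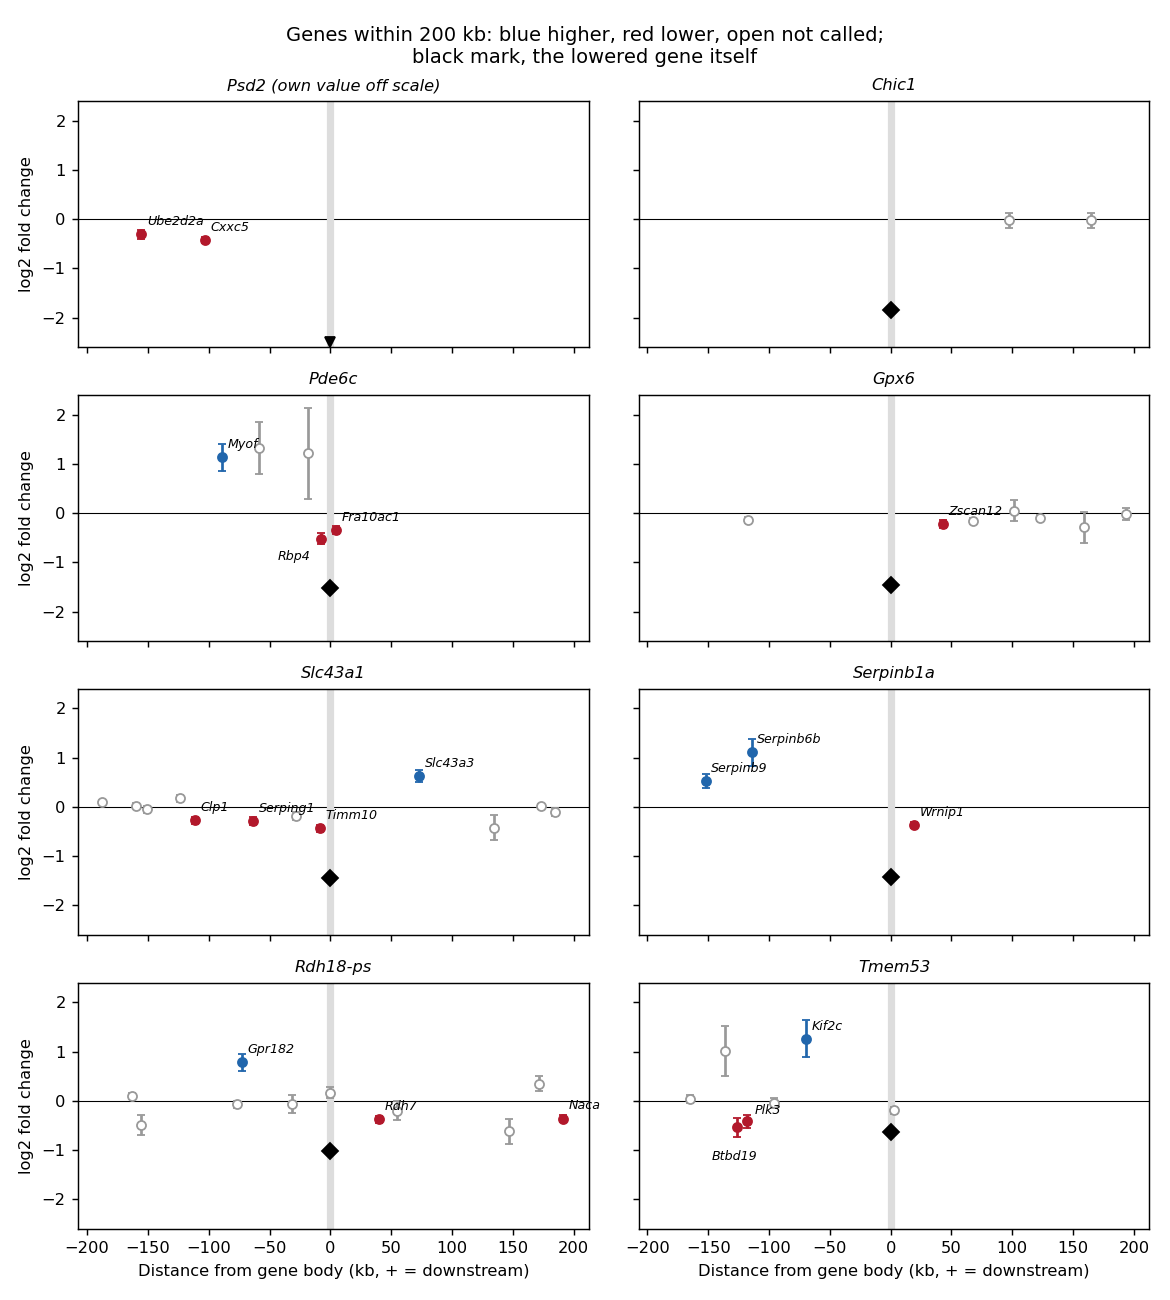
Log2 fold change with SE (vertical axis) of the genes kept within 200 kb of each annotated gene, against their distance from its gene body in kb (horizontal axis, positive downstream), in blue if higher, red if lower and open if not called. The black mark at 0 is the gene itself (an arrowhead for Psd2, at -5.24 off the scale), which lies below every neighbour in all 8 panels. The genes, unlike their neighbours, were chosen for their falls, so this position is a description.

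The lists of related genes differed in direction, as their plot shows. Phosphodiesterases, clade B serpins and the list of SLC43, system L and other amino acid transporters held more higher than lower genes. Branched-chain amino acid breakdown, glutathione supply and retinoid metabolism held more lower than higher genes. Over all lists of related genes, the cone photoreceptor and other cell type markers left out, 31 genes were higher and 32 lower. Among all genes kept, 21.2% were higher and 17.3% lower. The shares over the lists together were not computed, so these pooled counts are a description only.

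**Figure D4:**
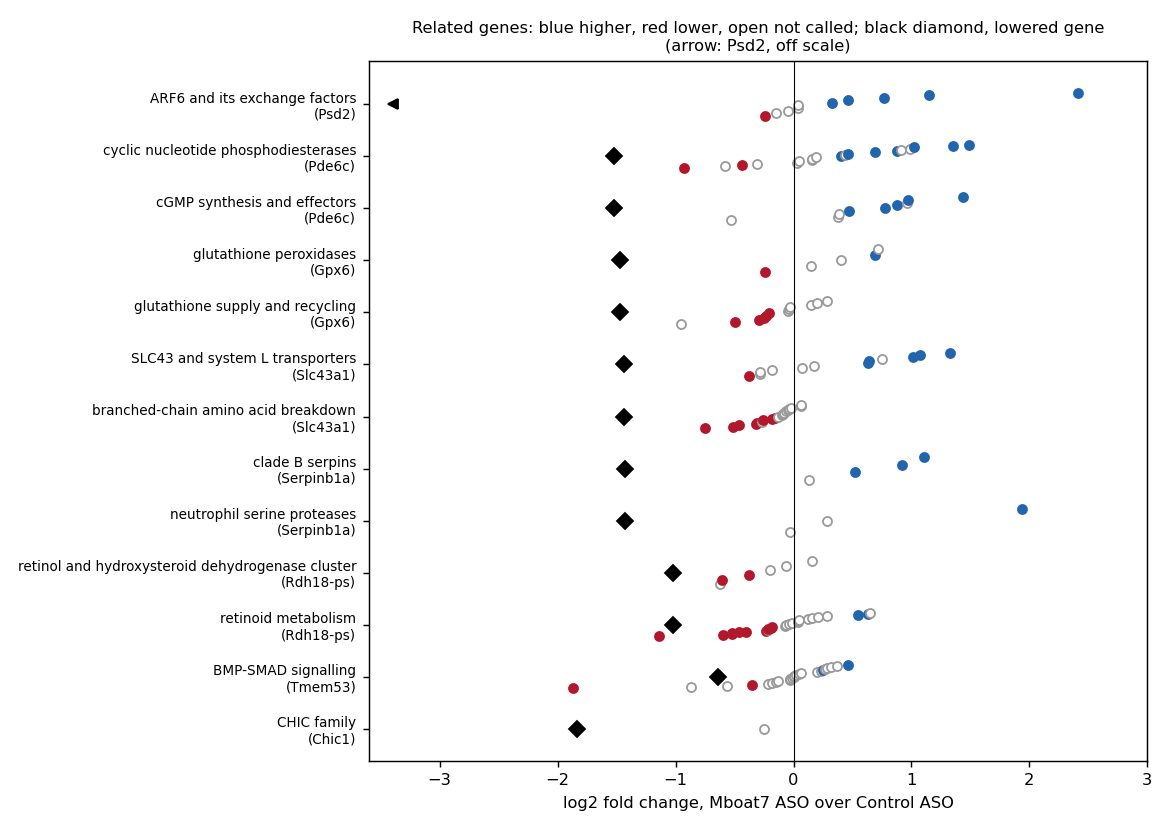
Log2 fold change of Mboat7 ASO over Control ASO (horizontal axis) for the genes kept in each list of related genes (rows, with the lowered gene in brackets), in blue if higher, red if lower and open if not called. The black diamonds are the lowered genes (an arrow for Psd2, off the scale at -5.24). In every row except BMP-SMAD signalling and retinoid metabolism the lowered gene lies left of all its relatives. Only the lowered genes were chosen for their falls, so this position is a description.

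The SD of log2 CPM between livers of the same group was larger for most of the 9 genes than its median over all genes kept. Uniformity of the fall was part of the choice of genes, so these SDs are a description. The within-group SD of log2 CPM was 0.69 for Chic1, 0.67 for Slc43a1, 0.55 for Serpinb1a, 0.52 for Gpx6, 0.51 for Pde6c, 0.41 for Psd2 and 0.35 for BC089597, against a median of 0.16 over all genes kept. Counting error adds to this SD at low counts, and no comparison with genes of matched level was made. Mean levels of Psd2, Pde6c, Gpx6, Chic1, Serpinb1a and Slc43a1 were at percentiles 0.88, 7.28, 11.3, 21.4, 24.7 and 33.7 of all genes kept. That of BC089597 was at percentile 89.5. For Rdh18-ps and Tmem53, genes chosen for uniform falls, the within-group SD of log2 CPM was 0.12 and 0.11. Their mean levels were at percentiles 22.9 and 61.7. Correlations were computed on log2 CPM after subtraction of each group's mean, over 10 libraries, for 36 pairs of members and 45 pairs of a member with a summed marker list, and p-values came from 100000 permutations within groups. The relations use the same 10 libraries, with the same depth and cell composition, so the 81 of them are not independent.

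Chic1 varied with BC089597 and with Slc43a1. For Chic1 and BC089597, Pearson r was 0.81 (permutation p = 0.00233, adjusted over 81 relations 0.0629) and Spearman rho was 0.81 (permutation p = 0.00107, adjusted 0.0289). Without the 2 libraries farthest from the median of Chic1, r was 0.77. For Chic1 and Slc43a1, r was 0.80 (permutation p = 0.0373, adjusted 0.263) and rho 0.92 (permutation p = 0.00879, adjusted 0.178), with r = 0.64 after the same removal. In each of these genes replicate 7 was the highest Mboat7 ASO library. Serpinb1a and Tmem53 had r = 0.73 (permutation p = 0.0415, adjusted 0.263) and rho = 0.67 (permutation p = 0.079, adjusted 0.442), but r was 0.36 with replicates 2 and 9 left out. No pair of members passed the adjusted threshold by Pearson r, and 3 pairs had an unadjusted p under 0.05.

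The relations that passed on both measures were those of Chic1 and BC089597 with the summed level of cholangiocyte markers, a list of 9 genes in which Spp1 makes up 73.6% of the sum. Spp1, which encodes osteopontin, is also made by macrophages and rose by 1.18 ± 0.28 (edgeR adjusted p = 0.00839). It was the only 1 of the 7 markers kept that was called higher (14.3%, beside 21.2% of all genes). Of these 7, 0 were lower, and the median log2 fold change was -0.19. The relation of Chic1 and BC089597 with the list without Spp1 was not tested. For Chic1, r was -0.96 (permutation p = 0.00104, adjusted 0.0421) and rho was -0.94 (permutation p = 0.00033, adjusted 0.0198), with r = -0.92 without the 2 farthest libraries. For BC089597, r was -0.91 (permutation p = 0.00018, adjusted 0.0146) and rho was -0.90 (permutation p = 0.00049, adjusted 0.0198), with r = -0.83 after the removal. The list summed to 194, 92.6, 108, 96.2 and 143 CPM in Mboat7 ASO livers, against 78.3, 91.8, 57.8, 71.5 and 61.2 CPM in Control ASO livers. Replicates 6 and 10, with the highest sums, were the Mboat7 ASO libraries with the least Chic1, and Control ASO replicate 2, with the highest control sum, was the control with the least Chic1 and the least BC089597. Other relations with marker lists had an unadjusted p under 0.05 by Pearson r but did not pass adjustment. Chic1 had r = -0.70 with stellate cell markers (rho -0.70, permutation p = 0.013, adjusted 0.175) and r = -0.64 with neutrophil markers (rho -0.49, permutation p = 0.0358, adjusted 0.263), and -0.64 and -0.67 without the 2 farthest libraries. BC089597 had r = -0.83 with stellate cell markers (rho -0.72, permutation p = 0.0054, adjusted 0.109), and r = -0.61 without the 2 farthest libraries. With hepatocyte markers BC089597 had r = 0.74 (rho 0.68, permutation p = 0.00811, adjusted 0.131), and r = 0.73 after the removal. Gpx6 and Slc43a1 also varied with the hepatocyte markers (r = 0.80 and 0.78, rho 0.71 and 0.66, permutation p = 0.0319 and 0.0422, adjusted 0.263 for both), and without the 2 farthest libraries r was 0.53 and 0.67. Pde6c had r = -0.69 with pan-leukocyte markers (rho -0.72, permutation p = 0.0162, adjusted 0.188) and r = -0.76 with neutrophil markers (rho -0.67, permutation p = 0.031, adjusted 0.263), and -0.76 and -0.75 after the removal.

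**Figure D5:**
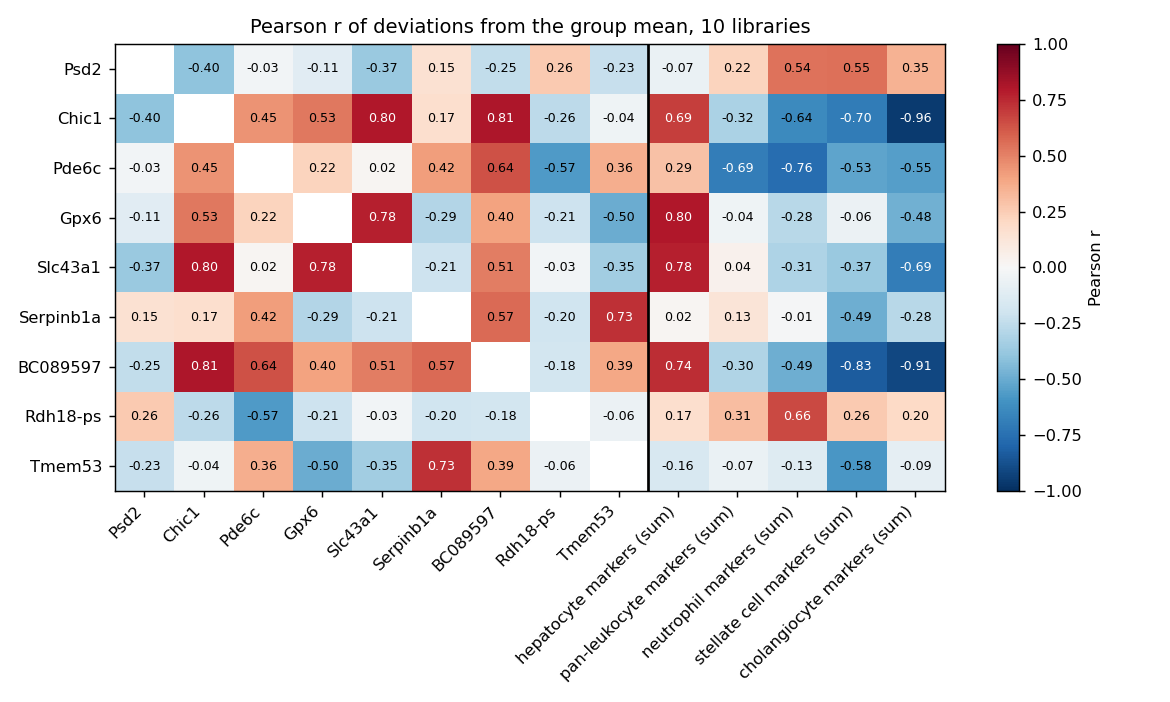
Pearson r between deviations from the group mean of log2 CPM over 10 libraries, for each of the 9 genes (rows) with the other members and with the summed level of 5 marker lists (columns, right of the black line). The strongest cells are Chic1 and BC089597 with the cholangiocyte list (-0.96 and -0.91), followed by BC089597 with stellate cell markers (-0.83) and Chic1 with BC089597 (0.81).

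Among all other genes averaging 1 CPM or more, those most like each member in within-group variation were picked for the highest r over the 10 libraries and are given as a description. Chic1 was closest to Slc6a12, a betaine transporter (r = 0.99), and Ido2, a tryptophan-degrading enzyme (r = 0.98). Slc43a1 was closest to Magix (r = 0.97), BC089597 to the carboxylesterase Ces1c (r = 0.97), and Gpx6 to 1810043G02Rik (r = 0.94). Slc6a12 fell by 0.53 ± 0.10 (edgeR adjusted p = 0.004), Magix by 0.60 ± 0.12 (edgeR adjusted p = 0.00496) and Ces1c by 0.50 ± 0.13 (edgeR adjusted p = 0.0117). The best matches of the other members had r between 0.91 and 0.94, among them Ugt2b36 for Pde6c (0.91) and Cept1 for Tmem53 (0.93).

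Promoter sequences were available from RefSeq (GRCm38.p6) for 4 of the 9 genes, namely Slc43a1, Tmem53, Gpx6 and Chic1. They are shown for Chic1, Slc43a1 and Gpx6, 3 low-abundance genes with broad variation in common, as the bases before the first annotated exon within 250 bases of the RefSeq start, with motif matches in capitals. The motifs searched, on both strands, were the TATA box TATAAA, the CCAAT box, the Sp1-type GC box GGGCGG, the E-box CACGTG, the STAT-type TTCNNNGAA, the antioxidant response core TGACNNNGC and the direct repeat 1 of nuclear receptors. The first line is chrX:103356226-103356475, the second chr2:84840073-84840198 and the third chr13:21311953-21312124, all on the plus strand.
Chic1: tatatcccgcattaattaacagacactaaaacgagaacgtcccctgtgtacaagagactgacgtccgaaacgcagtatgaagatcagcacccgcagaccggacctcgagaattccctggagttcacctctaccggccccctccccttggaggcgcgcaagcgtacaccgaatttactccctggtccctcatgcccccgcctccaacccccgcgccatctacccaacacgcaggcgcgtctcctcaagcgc
Slc43a1: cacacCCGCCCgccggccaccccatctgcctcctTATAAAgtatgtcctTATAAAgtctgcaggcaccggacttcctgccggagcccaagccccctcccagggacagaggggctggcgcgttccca
Gpx6: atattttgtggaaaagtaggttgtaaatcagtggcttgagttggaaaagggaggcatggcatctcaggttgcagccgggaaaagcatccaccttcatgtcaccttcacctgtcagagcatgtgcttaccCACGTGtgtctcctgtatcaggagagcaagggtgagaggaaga

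Chic1 has no match in its 250 bases. The upstream part of Slc43a1 holds TATAAA at 2 places, each far from the start, and GGGCGG on the minus strand, and that of Gpx6 holds a single CACGTG. Slc43a1 has a CACGTG as well, 64 bases before the RefSeq start and inside an exon of another annotated transcript. The 30 bases around the match are shown for both (chr2:84840247-84840276 and chr13:21312070-21312099), with the match in capitals.
Slc43a1: agggtctccctcCACGTGgcagccgtggga
Gpx6: catgtgcttaccCACGTGtgtctcctgtat

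Outside the 6 capitals the stretches differ. CACGTG occurs within 250 bases before the start in 6.02% of 32851 RefSeq promoters, and in 2 of the 4 genes with a promoter sequence. TATAAA occurs in 12.37% of promoters and in 1 of the 4 genes, CCAAT in 33.85% and in 3 of the 4 genes, and GGGCGG in 32.74% and in 2 of the 4 genes, Slc43a1 and Tmem53. TGACNNNGC (10.16% of promoters) occurs in Slc43a1, while TTCNNNGAA (7.02%) and the direct repeat 1 (0.03%) occur in none of the 4. The 300-base windows of Slc43a1, Tmem53, Chic1 and Gpx6 had GC contents of 67.7%, 65% (62.7% for a second start), 58.7% and 50.0%, beside a median of 52.7% over all promoters.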

How the data were processed

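Liver RNA was sequenced by the authors as 50-base single-end reads, trimmed with Trim Galore 0.3.3, checked with FastQC 0.11.3 and aligned with STAR to mm10 (GRCm38). The authors deposited whole-number read counts for each gene symbol, from the aligner's own gene counting and without normalization. The sources used here do not name the strand column they took. A further 10 sample columns of the table matched none of the labels and were left out. Samples were grouped by title.

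Genes with at least 1 CPM in at least 1 library (12609 of 24411) were fitted in R 4.3.3 with edgeR 4.0.16 (upper-quartile normalization, quasi-likelihood test, Benjamini-Hochberg adjustment over all genes kept, threshold 0.05). SE is the log2 fold change divided by the square root of its F statistic. CPM values use the normalized library sizes, and log2 CPM a prior count of 2. Coordinates, lengths, neighbours and 50-base stretches come from GENCODE release 21 for mouse (GRCm38), matched by symbol for 8 of 9 genes, and promoters from RefSeq (GRCm38.p6). The fit was tested on simulated data.

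The 9 genes and the lists of related and marker genes were chosen with earlier results of these data known. Named were all 9 genes, all called and up to 3 uncalled neighbours each, up to 4 called genes of lowest p per list plus close paralogs, the 2 genes most like each member, and the genes ranked beside them. Opn1mw, Opn1sw, Cnga3, Arr3, Gnb3, Gnat2, Guca1a, Snap25, Nefl, Syt1 and Arf6 were named after their values were seen, and 1 gene that the rule chose is not reported here. Alternatives were TMM, RLE or no normalization factor, other filters, DESeq2 1.42.0, limma-voom (limma 3.58.1), removal of the length trend, leaving out each library or replicates 2 and 9 together, and a 50 kb window. Permutation p-values for correlations and the separation of the groups on plain library totals were additions made with the data in view. The groups share no replicate numbers.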

Additional observations from a re-analysis of the deposited data

Results flagged for a closer look

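In the Control ASO group the summed level of the 12 cone photoreceptor markers, the list set beside Pde6c, reached 7.95 CPM in replicate 2, far from the other 4 libraries, which lay between 4.52 and 5.35 CPM. The gap was 0.758 of the whole range of the group, above Dixon's critical value for 5 samples. The sum was 22.5, 15.3, 19.0, 6.72 and 8.92 CPM in Mboat7 ASO livers, and 4 of the 12 markers had no read in any library. Gngt2, which leukocytes also express, reached 4.93 CPM in the Control ASO group, whose pan-leukocyte sum was also highest in replicate 2 (195 CPM). Pde6c itself was lowest of the controls in this library (0.835 CPM). Of 32 groups of 5 values examined in this way, 1 stood out, and chance gives about 1 in 20.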

How the results depend on the processing

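All 9 genes were lower under every alternative in which they were kept. A filter of 1 CPM in at least 5 libraries kept 7 of them, and the length trend could be removed for 8, as BC089597 has no annotated length. With no normalization factor the median of all genes rose by 0.16 on the log2 scale, 4672 genes were called higher and 769 lower (85.9% of calls higher, against 55.0%), 14 neighbours were higher and 5 lower, and 52 related genes were higher and 16 lower. Within 50 kb, where 11 genes were kept rather than 49, 0 neighbours were higher and 6 (54.5%) lower. After removal of the length trend Bmpr2 had a log2 fold change of -0.06 and Gpx1 of 0.00. When each library was left out in turn, between 1992 and 3079 genes were higher and between 1587 and 2319 lower, 5 to 8 neighbours were higher and 10 to 13 lower, and 25 to 40 related genes were higher and 22 to 34 lower. Of 104 other genes chosen for naming that were called, 69 kept their call under every alternative. The cause of these changes was not tested. No paired analysis was possible because the groups share no replicate numbers. Depth limits Psd2, Pde6c and Gpx6 most, with 3, 83 and 124 counts over the Mboat7 ASO libraries and 123, 213 and 309 counts over the Control ASO libraries.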

Other observations

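The genes that lay beside the 9 members in the ranking by fold change included Hao2, Cux2 and Sult1e1, which differ between the sexes in mouse liver. In a list of 23 genes known to be higher in female liver, 18 were kept, of which 8 were lower and 0 higher in Mboat7 ASO livers, with a median log2 fold change of -0.94, beside 17.3% lower among all genes. A1bg (-2.65 ± 0.62, edgeR adjusted p = 0.00788), Slc22a26 (-2.09 ± 0.51, edgeR adjusted p = 0.00971) and Hao2 (-1.64 ± 0.41, edgeR adjusted p = 0.0103), the gene ranked just above Pde6c, were among them. The number of lower genes was 5 without replicate 6, 8 or 10 of the Mboat7 ASO group or replicate 5 of the controls, 4 without replicate 4 of the controls, and 6 to 11 without any other single library. In a list of 23 genes known to be higher in male liver, 22 were kept, of which 2 were higher and 0 lower, with a median of -0.06 that changed sign under several alternatives. Mup20 was one of the higher genes (1.04 ± 0.28, edgeR adjusted p = 0.0154). All mice were male. The lists were chosen with results of these data known.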
